A study of Rattus norvegicus with 6 samples.

Results

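10 rat genes tied to the hypertonic and urine-facing parts of the kidney were followed in the renal cortex of rats given o-anthranilic acid. They are the osmolyte carriers Slc5a3, Slc6a12 and Slc6a6, the tonicity factor Nfat5, the urea transporters Slc14a2 and Slc14a1, the chaperones Hspa4l and Cryab, and the uroplakins Upk1b and Upk3a. They were chosen by name, and every non-control probe whose RefSeq accession maps to 1 of the 10 symbols was taken. All 10 were on the array, with 23 probes, out of 15277 named genes. In the treated group, 3 male Sprague-Dawley rats were dosed over 4 weeks with 1000 mg/kg/day of o-anthranilic acid, and in the vehicle group 3 male Sprague-Dawley rats had corn oil for the same time. All 6 animals were bought at 5 weeks of age and kept on a basal diet. The labels name 3 animals and 3 samples per group, each sample being total RNA of renal cortex, read in Cy3 on its own single-colour Agilent array. The compound, an aminobenzoic acid, also arises in the body during tryptophan breakdown.

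The inner medulla of the kidney is bathed in concentrated salt and urea. Its cells balance the salt by gathering small organic osmolytes such as myo-inositol, betaine and taurine, through carriers that the transcription factor NFAT5 (TonEBP) switches on when tonicity rises. NFAT5 binds the tonicity-responsive enhancer, TonE, in the DNA of its target genes. Urea crosses the inner medullary collecting duct and thin limbs through products of Slc14a2 (UT-A), and the vasa recta and red cells through the product of Slc14a1 (UT-B). The renal pelvis is lined by urothelium, whose outermost umbrella cells carry rigid plaques built of the uroplakins. A cut of pure cortex holds little inner medulla and no pelvis wall, so the urea transporters and uroplakins may also bear on how a cortex sample was cut. The tested probes of Slc5a3, Slc6a6, Nfat5 and Cryab were well above background on every array here. Whether any of that signal came from medulla left in the cut was not tested.

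Values below are log2 of the processed signal minus the log2 of the array's own 75th percentile, so 0 is the level of that percentile and 1 unit is a doubling. Different probes bind with different strength, so levels were not compared between genes. Each gene was tested by its brightest kept probe, kept meaning that the scanner called it well above background on 3 or more of the 6 arrays. 19 of the 23 probes were kept and all 10 genes had at least 1. The other 4, which were 2 for Slc14a2, 1 for Slc14a1 and 1 for Upk1b, were not well above background on any array. The whole array gave 30709 features for the test, with 63.7% to 68.3% of probes well above background on the treated arrays and 66.0% to 69.3% on the vehicle arrays. Treated replicate 2 was alone on a second slide. The number of arrays limits the precision: fold changes on the log2 scale had a median SE of 0.15 over the 10 genes and 0.11 over all features.

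None of the 10 genes passed the test of treated against vehicle animals. limma called 0 of 10 at a Benjamini-Hochberg adjusted p under 0.05, as it called 0 of all 30709 features (0%), of which 2548 had an unadjusted p under 0.05. At an unadjusted p under 0.05 there were 2 of the 10, Slc6a6 and Cryab, both higher in treated animals, where 8.3% of all features reached that level (3.46% higher and 4.84% lower). The groups were fully separated for 1 of the 10, Slc6a6, which was higher in treated animals, against 14.7% of all features in either direction and 6.39% higher (8.31% lower). The median log2 fold change was 0.07 over the 10 genes and -0.01 over all features. Upk3a stood apart in 1 animal, treated replicate 3, and not by group.

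**Figure D1:**
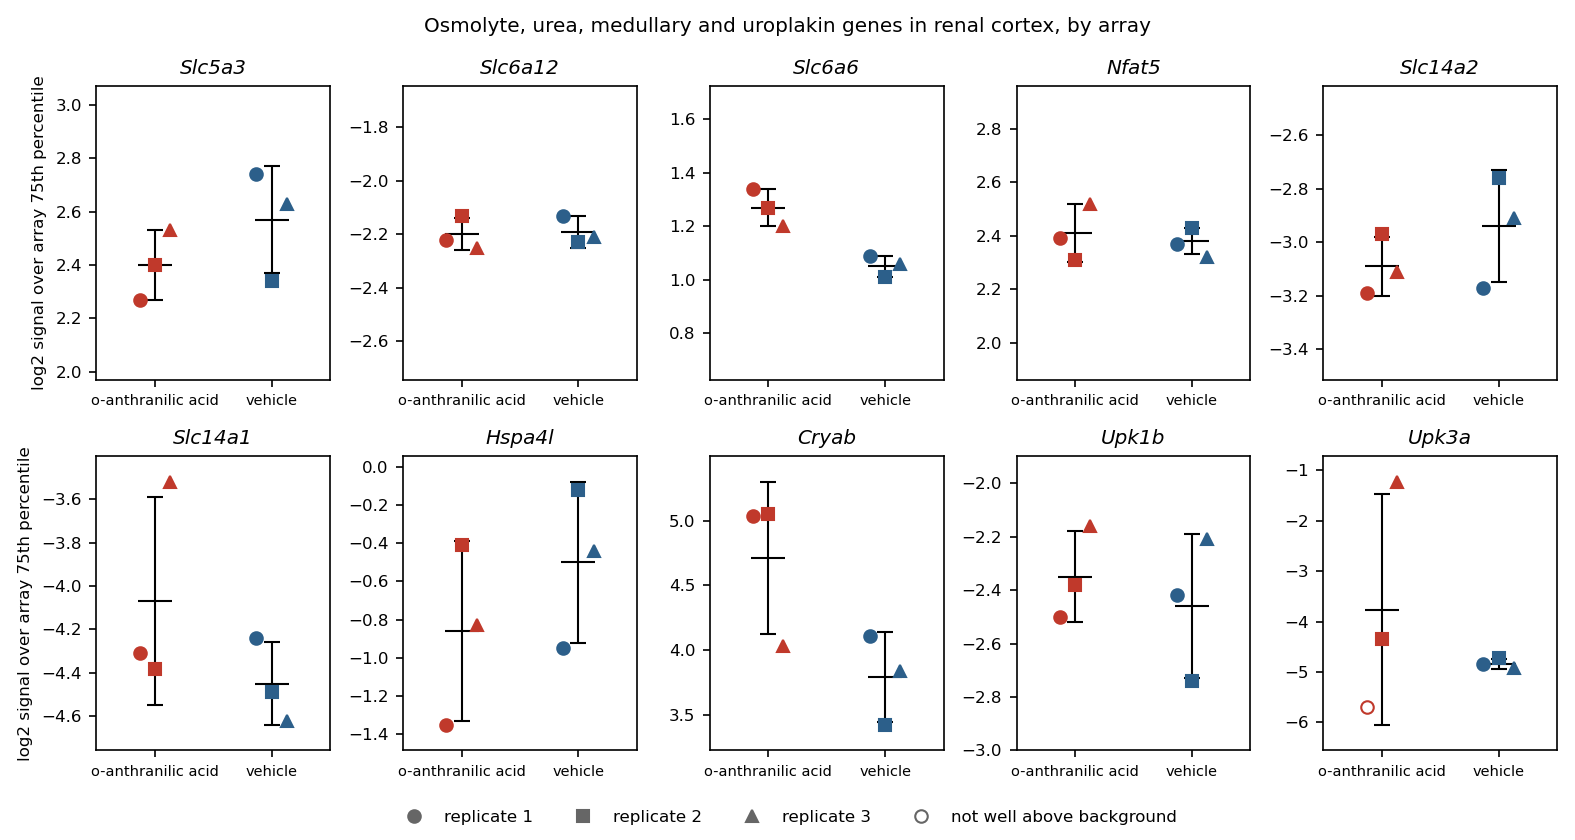
Log2 signal over the array's 75th percentile for the tested probe of each gene, with o-anthranilic acid left and vehicle right in each panel, 1 point per animal, and bars for the mean and SD of 3. Open points were not well above background, and panels have their own scales spanning at least 1 log2 unit. Treated replicate 3 stands at -1.23 for Upk3a, above the other 5 arrays, and treated replicates 1 and 2 stand at 5.04 and 5.05 for Cryab.

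The carriers that bring osmolytes into the cell differed little between the groups. Slc6a6 encodes the taurine transporter. Its tested probe (A_64_P145253, NM_017206) read 1.34, 1.27 and 1.20 in treated animals, against 1.09, 1.01 and 1.06 in vehicle animals. Every treated value lay above every vehicle value. The log2 fold change was 0.21 ± 0.07 (SE, n = 3 per group), or 1.16-fold, with a limma p of 0.0258 unadjusted and 0.537 adjusted over all features. The second probe of Slc6a6 (A_44_P510515) read -1.58, -1.39 and -1.43 in treated animals, against -1.39, -1.62 and -1.58 in vehicle animals. Those values overlap, and the means differed by 0.07, so the separation seen with the tested probe was not seen with the second.

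The promoter of Slc6a6 is shown because, of the 8 genes with a promoter in the table used, it alone held a TonE match, and it is also the carrier whose groups did not overlap. The window runs from 250 bases before to 50 bases after the start at chr4:125752252-125752551 of GRCr8 on the plus strand, from RefSeq. The array's design is on an older build, and no probe was placed on these coordinates. Capitals mark the match, which reads TGGAAAAATAC on the strand opposite to the gene.

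Slc6a6: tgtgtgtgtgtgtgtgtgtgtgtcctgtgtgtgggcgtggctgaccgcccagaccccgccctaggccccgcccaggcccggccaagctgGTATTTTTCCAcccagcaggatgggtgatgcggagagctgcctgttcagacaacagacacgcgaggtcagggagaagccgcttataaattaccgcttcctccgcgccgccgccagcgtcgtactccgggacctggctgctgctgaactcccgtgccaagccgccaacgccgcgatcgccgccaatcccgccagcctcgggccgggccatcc

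TonE was searched on both strands by its consensus, which opens with TGGAAA, and 5.98% of the 33469 promoter windows of the same length held it. TGGAAA alone was in 22.72% of them and, among the 8 genes (Slc5a3, Slc6a12, Slc6a6, Slc14a2, Slc14a1, Hspa4l, Upk1b and Upk3a), in Slc6a6 only, at the same place. Slc14a2 has 2 such windows. Among the genes of the marker lists given below, TonE was also in windows of Hsph1, Aqp4, Cubn and Umod. Their log2 fold changes were -0.13, 0.52, 0.08 and 0.00, and none passed the test. A match is a stretch of letters and not evidence of binding, and its absence says only that these letters are not in this window.

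Slc5a3 encodes the sodium-coupled myo-inositol carrier. Its tested probe (A_64_P082341, NM_053715) read 2.27, 2.40 and 2.53 in treated animals, against 2.74, 2.34 and 2.63 in vehicle animals. The groups overlapped through vehicle replicate 2, which was the second lowest of the 6. The log2 fold change was -0.17 ± 0.13 (SE), with a 95% interval from -0.48 to 0.15 and a limma adjusted p of 0.754. The other probes, A_44_P540690 and A_44_P540693, had mean differences of -0.17 and -0.24, so all 3 probes lay on the same side. Slc5a3 was between -0.28 and -0.09 when 1 array was left out.

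Slc6a12 encodes the betaine carrier BGT1. Its tested probe (A_42_P596458, NM_017335) read -2.22, -2.13 and -2.25 in treated animals, against -2.13, -2.23 and -2.21 in vehicle animals. All 6 values lay within 0.12 of each other, the narrowest range of the 10 genes. Treated and vehicle means differed by -0.01 ± 0.07 on the log2 scale (SE; 95% interval -0.19 to 0.17; limma, adjusted p = 0.980). Its dimmer probe (A_44_P141992), well above background on 4 of 6 arrays, had means of -4.78 in treated and -4.83 in vehicle animals.

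Nfat5, the tonicity factor itself, had 4 kept probes. The tested one (A_42_P555795, NM_001107425) read 2.39, 2.31 and 2.52 in treated animals, against 2.37, 2.43 and 2.32 in vehicle animals. The groups were interleaved, and the log2 fold change was 0.03 ± 0.08 (SE), with a 95% interval from -0.17 to 0.24. A_44_P927671 and A_44_P431447 had mean differences of -0.02 and 0.03. The dimmest probe, A_43_P21944, differed from these: it read -3.92, -4.10 and -2.79 in treated animals, against -4.23, -4.01 and -4.14 in vehicle animals. Treated replicate 3 was 1.13 above the next array on that probe alone, and the other 3 Nfat5 probes did not show such a step.

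Hspa4l encodes Osp94 (APG-1), a chaperone of the Hsp110 family that hypertonic stress induces in medullary cells. Its single probe (A_44_P1049055, NM_001106428) read -1.35, -0.41 and -0.83 in treated animals, against -0.95, -0.12 and -0.44 in vehicle animals. The spread within each group, an SD of 0.47 in treated and 0.42 in vehicle animals, was larger than the difference of the means. Hspa4l had a log2 fold change of -0.36 ± 0.30 (SE; limma, adjusted p = 0.774), and it was -0.12 without treated replicate 1 and -0.58 without treated replicate 2.

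Cryab had the lowest unadjusted p after Slc6a6 and a larger difference. It encodes alpha-B-crystallin, a small heat shock protein that is abundant in the lens, in muscle and in the renal medulla. Its single probe (A_44_P531758, NM_012935) read 5.04, 5.05 and 4.03 in treated animals, against 4.11, 3.42 and 3.84 in vehicle animals. Treated replicates 1 and 2 lay above all vehicle animals, and treated replicate 3 lay inside the vehicle range. The log2 fold change was 0.92 ± 0.32 (SE), or 1.89-fold, with a 95% interval from 0.13 to 1.71 and a limma p of 0.0295 unadjusted and 0.547 adjusted over all features. Leaving out 1 array gave values from 0.73 (without vehicle replicate 2) to 1.26 (without treated replicate 3), and the adjusted p was 0.505 or more under every other setting. The smooth and other muscle list, a tissue rich in Cryab, had a median log2 fold change of -0.06, with 0 of 6 tested genes at an unadjusted p under 0.05. Its summed signal was 11.1 to 13.9 times the 75th percentile in treated and 11.8 to 14.1 times in vehicle animals, and Cnn1 did not reach well above background on the 6 arrays.

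A pair of the 5 tested genes on the outer medulla list, picked after their values were seen, had array values in nearly the same order as Cryab. Both overlapped between the groups. Slc7a13, an amino acid transporter of the proximal straight tubule, read 6.90, 6.79 and 5.46 in treated animals, against 6.36, 4.42 and 4.83 in vehicle animals, at 1.18 ± 0.61 (SE; limma, adjusted p = 0.661). Slc22a7, the organic anion transporter OAT2, read -0.43, -0.26 and -1.70 in treated animals, against -1.02, -3.13 and -2.40 in vehicle animals, at 1.38 ± 0.62 (SE; limma, adjusted p = 0.620). As for Cryab, treated replicates 1 and 2 were the highest of the 6 and vehicle replicate 2 the lowest. The other tested genes of the list, Umod, Cldn16 and Kcnj1, did not share this order. Umod and Kcnj1 were highest on vehicle replicate 3, and Cldn16 was lowest on treated replicate 3. Their log2 fold changes were 0.00 for Umod, 0.02 for Cldn16 and -0.15 for Kcnj1. The part of the cut of the tissue in the Cryab value was not tested.

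**Figure D2:**
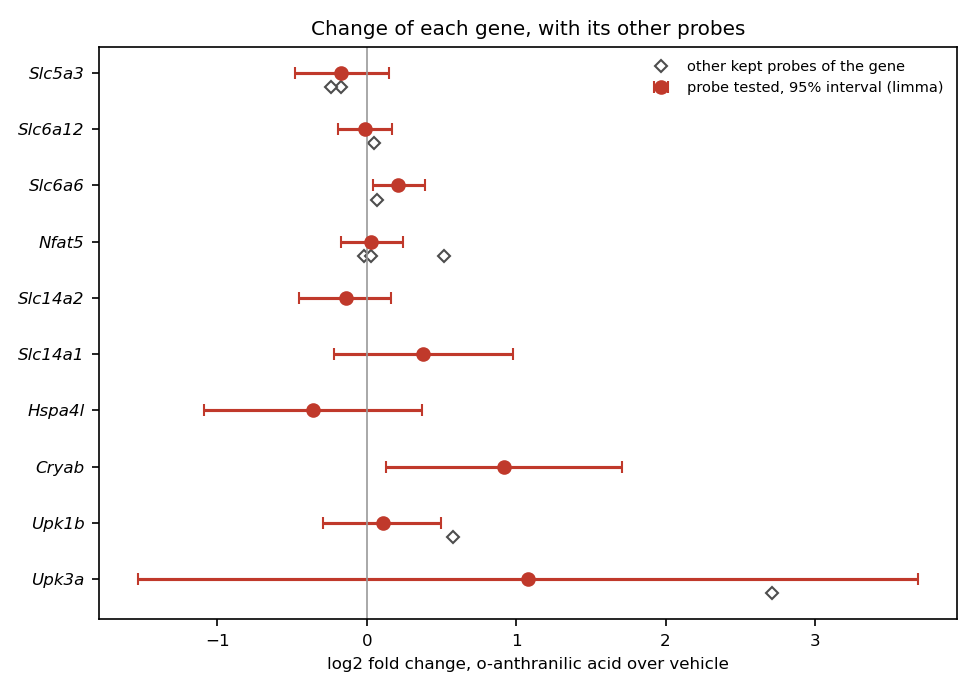
Log2 fold change of o-anthranilic acid over vehicle for the tested probe of each gene with its limma 95% interval (red), and the mean difference of every other kept probe of the gene (open diamonds). The intervals of Slc6a6 (0.04 to 0.39) and Cryab (0.13 to 1.71) lie above 0, and the interval of Upk3a runs from -1.53 to 3.69.

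The urea transporters were dim. Slc14a2 was read by 1 probe (A_44_P315895, NM_177962), at -3.19, -2.97 and -3.11 in treated animals, against -3.17, -2.76 and -2.91 in vehicle animals. The groups overlapped, and no array stood apart; the highest, vehicle replicate 2, was 0.15 above the next. Its log2 fold change was -0.14 ± 0.13 (SE), with a 95% interval from -0.45 to 0.16 and a limma adjusted p of 0.784. With 1 array left out it ran from -0.26 to -0.05. A second probe of the same accession (A_64_P074029) and a probe of NM_019347, another accession mapped to Slc14a2 (A_43_P12032), were not well above background on any array. In bulk tissue, fewer cells of a type and less RNA per cell cannot be told apart, here and for the genes below.

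Slc14a1 was read by A_43_P12031 (NM_019346), at -4.31, -4.38 and -3.52 in treated animals, against -4.24, -4.49 and -4.62 in vehicle animals. Treated replicate 3 was the highest by 0.72, and the other 5 values lay between -4.62 and -4.24. Its log2 fold change was 0.38 ± 0.25 (SE; limma, adjusted p = 0.711), and it was 0.11 without treated replicate 3. Since red cells also carry UT-B, their genes are given beside it. All 6 tested genes of the erythrocyte list were higher in treated animals, as were 14770 of all 30709 features. Their median log2 fold change was 0.36. 3 of the 6, Hbb-b1, Hba-a1 and Alas2, had an unadjusted p under 0.05 and none passed. Among all features, 3.46% were higher at that level. Hbb, Hbb-b1 and Hba-a1 ranked the 6 arrays in the same order, so they are not separate observations. The summed signal of the list was 809 to 997 times the 75th percentile in treated and 628 to 836 times in vehicle animals. 5 of the 6 genes were highest on treated replicate 3, as were 14.3% of all features. The margins over the next array were 0.07 for Hbb, 0.04 for Hbb-b1, 0.06 for Hba-a1, 0.24 for Slc4a1 and 0.44 for Epb42. That next array was treated replicate 2 for Hbb, Hbb-b1 and Hba-a1. For Slc4a1 and Epb42 it was vehicle replicate 2, at 3.64 and -4.69, so they did not share the order of the other genes. The sum was 953 on treated replicate 2 and 997 on treated replicate 3, where Slc14a1 read -4.38 and -3.52. The endothelial list, which holds markers of the vasa recta, had a median of -0.10 over 8 genes, with none at an unadjusted p under 0.05. Its summed signal was 176 to 192 times the 75th percentile in treated and 190 to 198 times in vehicle animals. The array on which Slc14a1 was highest, treated replicate 3, was also the one on which Upk3a stood apart. The part of red cells, vessels or other tissue in the Slc14a1 value was not tested.

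Upk3a, the single-span uroplakin of the urothelial plaque, gave the widest spread of the 10 genes. The tested probe (A_64_P136884, NM_001130507) read -5.70, -4.35 and -1.23 in treated animals, against -4.85, -4.73 and -4.93 in vehicle animals. Treated replicate 3 was 3.12 above the next array, or 8.69-fold, while treated replicate 1 was not well above background. The second probe, A_43_P19944, a separate spot, read -5.68, -4.74 and -0.27 in treated animals, against -5.93, -5.32 and -7.57 in vehicle animals. It was well above background on 2 treated arrays and 1 vehicle array, and its step on treated replicate 3 was 4.47, or 22.2-fold. Both probes therefore placed the same animal far above the other 5.

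The log2 fold change of Upk3a, 1.08 ± 1.07 (SE; limma, adjusted p = 0.810), rests on treated replicate 3. Without treated replicate 3 it was -0.19, and without treated replicate 1 it was 2.05. On treated replicate 3, 94 of 30709 features (0.306%) stood at least 1 above the other 5 arrays, and 21 to 67 features did so on each of the other 5. A step as large as that of Upk3a was found for 5 features on treated replicate 3 (Upk3a included), 2 on vehicle replicate 2 and none on the other arrays. Among all features, the step of Upk3a ranked 7.

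Upk1b, a 4-span uroplakin that partners Upk3a in the plaque, had probes that disagreed. The tested probe (A_64_P130269, NM_001024253) read -2.50, -2.38 and -2.16 in treated animals, against -2.42, -2.74 and -2.21 in vehicle animals. Treated replicate 3 was the highest there by only 0.05, and the log2 fold change was 0.11 ± 0.16 (SE; limma, adjusted p = 0.884). The probe A_43_P11086 read -2.88, -2.73 and -1.06 in treated animals, against -3.94, -2.47 and -2.01 in vehicle animals. On it treated replicate 3 stood 0.94 above the next array and the range over 6 arrays was 2.88, against 0.58 for the tested probe. Both probes were well above background on all 6 arrays, and which of them reads Upk1b transcripts in this tissue was not tested.

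The list of urothelium and renal pelvis markers held 15 genes beyond the 2 uroplakins above, of which 11 had a named probe and 7 were tested. Upk1a, which pairs with Upk2 in the plaque, read -3.09, -2.88 and -1.08 in treated animals, against -2.99, -2.42 and -3.18 in vehicle animals. Upk2 was well above background only on treated replicate 3, at -2.56. Its readings of -7.31 and -6.29 on the other treated arrays and of -7.78, -8.08 and -7.60 on the vehicle arrays were not well above background, so no step is given for it. Treated replicate 3 gave the highest reading for all 4 uroplakins with a probe, by 1.34 for Upk1a and by 0.05 for the tested probe of Upk1b. Fxyd3, a regulator of the sodium pump, was highest there on both probes, by 0.96 and 1.49.

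Other markers of the list did not follow. Krt5, Krt14 and Krt15, keratins of basal epithelial cells, stood at -4.47, -3.74 and -3.20 on treated replicate 3, inside the range of the other 5 arrays for Krt14 and Krt15 and below 4 of the other 5 for Krt5. Krt20, a keratin of umbrella cells, and Ivl did not reach well above background on the 6 arrays. Psca did so only on vehicle replicate 1. Krt7, which collecting ducts also express, was lower in treated animals on every array, with a log2 fold change of -0.29 ± 0.10 (SE; limma, adjusted p = 0.542). Krt19 read -1.09, 0.12 and 0.04 in treated animals, against -2.90, -2.92 and -0.28 in vehicle animals, a log2 fold change of 1.72 ± 0.78 (SE; limma, adjusted p = 0.620). Over the 7 tested genes the median log2 fold change was 0.12, 1 gene had an unadjusted p under 0.05, and none passed. Their summed signal, mostly that of Krt7, was 15.7 to 17.1 times the 75th percentile in treated and 17.6 to 21.6 times in vehicle animals.

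**Figure D3:**
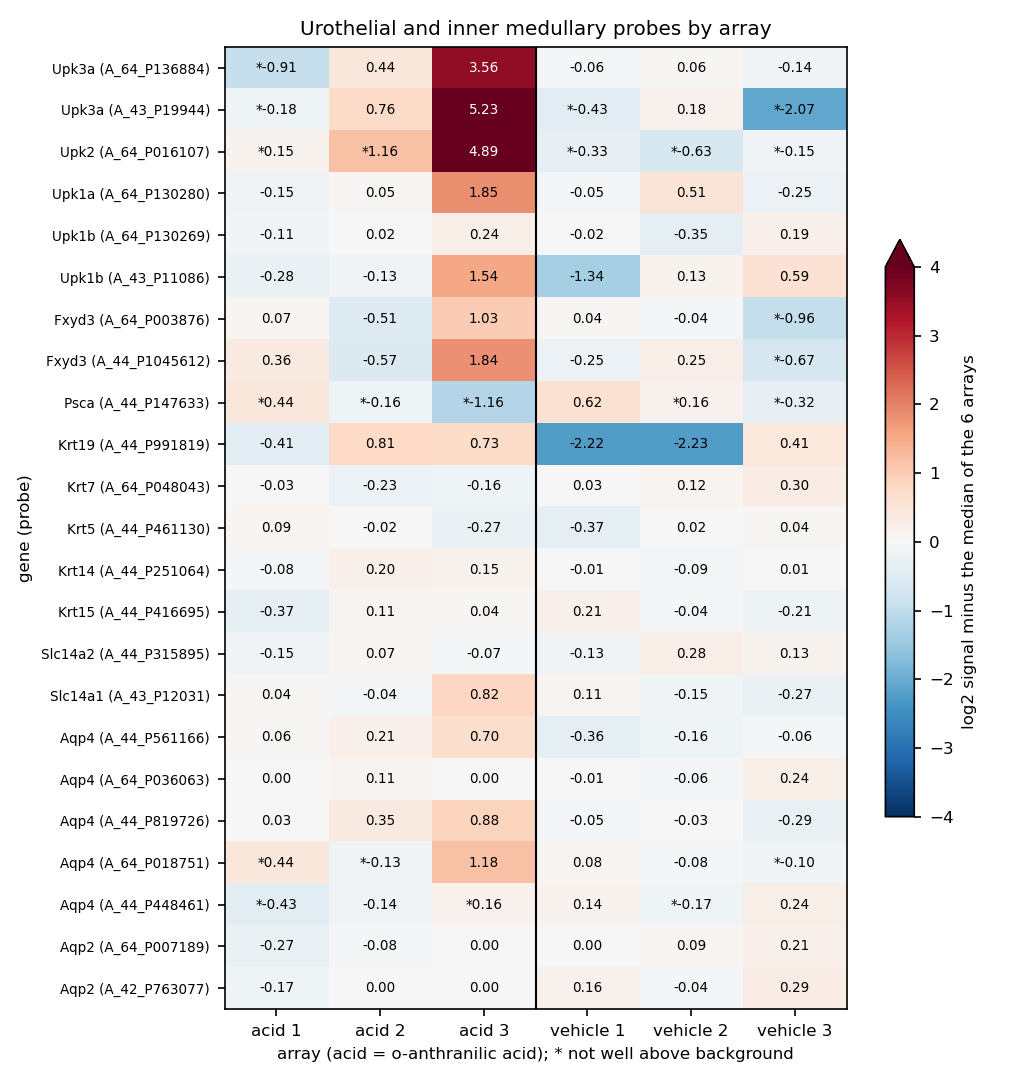
Log2 signal of each probe minus the median of its 6 arrays, for urothelial genes (upper rows) and inner medullary genes and urea transporters (lower rows), with o-anthranilic acid arrays left and vehicle arrays right; an asterisk marks a reading not well above background, whose value is not a measured level, and colours saturate at 4. Treated replicate 3 stands at 3.56 for the tested probe of Upk3a and 1.85 for Upk1a. It is the only array without an asterisk for Upk2. In the lower rows it stands at -0.07 for Slc14a2, 0.82 for Slc14a1, 0.70 for the tested probe of Aqp4 and 0.00 for that of Aqp2.

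The inner medulla list held 12 genes, 10 of them tested, with a median log2 fold change of -0.06. Of the 10, 2 were highest on treated replicate 3 and 6 on vehicle replicate 3, where 14.3% and 23.5% of all features were highest. Only Aqp4, a water channel of the basolateral membrane of the collecting duct, had an unadjusted p under 0.05. Its tested probe (A_44_P561166) read -0.49, -0.34 and 0.14 in treated animals, against -0.91, -0.71 and -0.62 in vehicle animals. The groups did not overlap and the log2 fold change was 0.52 ± 0.18 (SE; limma, adjusted p = 0.546). The other kept probes of Aqp4 disagreed. A_44_P819726 and A_64_P036063, well above background on all 6 arrays, had mean differences of 0.55 and -0.02. A_64_P018751 and A_44_P448461 had 0.53 and -0.21, but each was well above background on only 3 of the 6 arrays. Aqp2, the vasopressin-regulated water channel, read 6.20, 6.38 and 6.46 in treated animals, against 6.46, 6.55 and 6.67 in vehicle animals, a log2 fold change of -0.21 ± 0.10 (SE). Aqp3, the basolateral partner of Aqp2, stood at -0.24 ± 0.17 (SE), and Slc4a11, a transporter of thin limbs, at 0.15 ± 0.22 (SE). The summed signal of the list was 155 to 180 times the 75th percentile in treated and 165 to 199 times in vehicle animals. That sum was mostly the signal of Aqp2, Hsd11b2 and Aqp3, with vehicle means of 6.56, 5.64 and 5.03, so it says little of the dimmer genes. The part of medullary cells in it was not tested.

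Further genes of the tonicity response and of osmolyte handling were read from a list of 13, of which 10 were tested. The median log2 fold change was -0.12, with 2 genes above 0 and 8 below, and none passed. Akr1b1, aldose reductase, makes the osmolyte sorbitol. It read -0.49, -0.28 and -0.24 in treated animals, against -0.16, -0.20 and 0.32 in vehicle animals. Each treated value lay below each vehicle value, with a log2 fold change of -0.32 ± 0.16 (SE; limma, adjusted p = 0.648). Sord, which turns sorbitol into fructose, was also lower on every treated array, at -0.11 ± 0.07 (SE). Chdh, choline dehydrogenase on the route to betaine, read 5.17, 5.54 and 5.55 in treated animals, against 5.08, 4.80 and 4.96 in vehicle animals. It was the 1 gene of the list with an unadjusted p under 0.05, at 0.47 ± 0.14 (SE; limma, adjusted p = 0.497). Sgk1, a kinase that hypertonicity and aldosterone induce, stood at -0.87 ± 0.37 (SE; limma, adjusted p = 0.604). 4 of the 10 genes had groups that did not overlap, beside 14.7% of all features.

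Genes of the cortex and of other tissues were read beside the 10 genes. A small share of other tissue would hardly move the bright cortical genes, so they cannot show whether the cut was clean. The cortex list, with genes such as Slc34a1 of the proximal tubule and Slc12a3 of the distal convoluted tubule, had all 11 genes tested, a median log2 fold change of 0.03 and none at an unadjusted p under 0.05. Its summed signal was 1250 to 1320 times the 75th percentile in treated and 1240 to 1280 times in vehicle animals. The thick ascending limb and outer medulla list was split. Of its 5 tested genes Umod, Cldn16 and Kcnj1, of the thick ascending limb, stood at 0.00, 0.02 and -0.15, while Slc7a13 and Slc22a7 stood at 1.18 and 1.38, for a median of 0.02. None had an unadjusted p under 0.05, and the sums were 381 to 549 in treated and 305 to 512 in vehicle animals. The adipocyte list, for fat of the renal sinus, had 3 tested genes that disagreed, Adipoq at 0.36 ± 0.09 (SE; limma, adjusted p = 0.479), Cidec at 0.93 ± 0.47 (SE) and Cfd at -0.30 ± 0.34 (SE). Adipoq was the only one with an unadjusted p under 0.05. The median was 0.36, with sums of 2.1 to 2.43 in treated and 1.43 to 2.07 in vehicle animals. The mesothelial list rested on 2 genes that lay on opposite sides of 0, Wt1 at -0.22 and Krt19 at 1.72, so its median of 0.75 is their midpoint. It had sums of 1.26 to 1.99 in treated and 0.984 to 2.02 in vehicle animals. Msln, a defining mesothelial gene, was not kept. No gene of any of the 10 lists passed the adjusted threshold. The part of pelvis, fat or capsule in the values of the 10 genes was not tested.

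**Figure D4:**
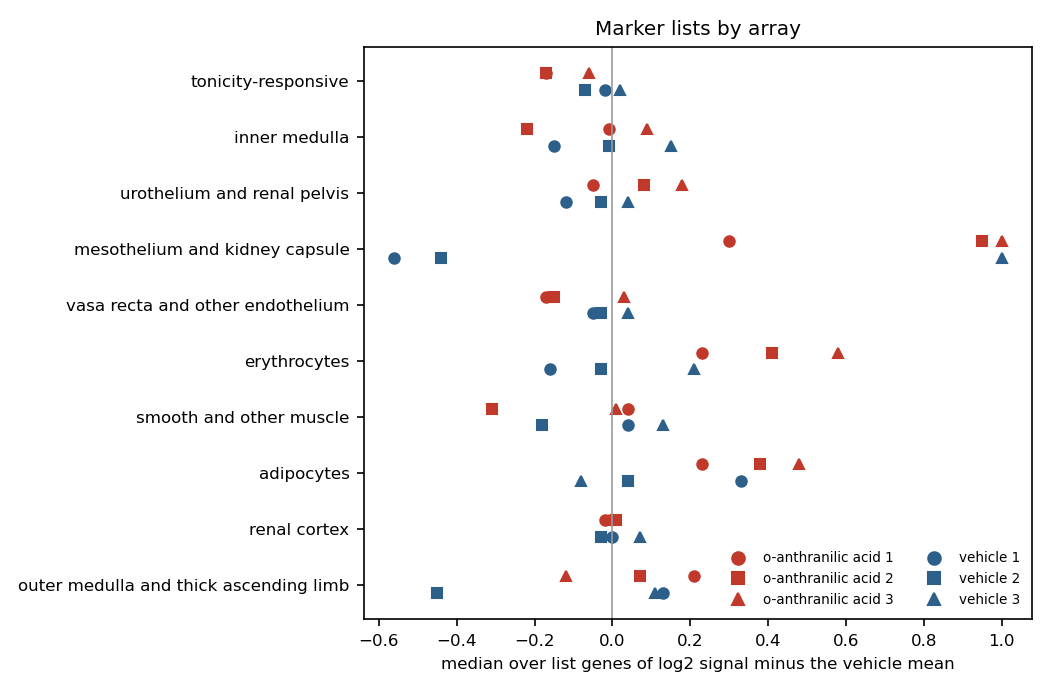
Median over the tested genes of each marker list of the log2 signal minus the gene's vehicle mean, 1 point per array, with o-anthranilic acid above vehicle in each row. The cortex list lies between -0.03 and 0.07 on every array, and the erythrocyte list stands at 0.23, 0.41 and 0.58 on the treated arrays and at -0.16, -0.03 and 0.21 on the vehicle arrays.

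The 10 genes had unlike profiles from array to array. By the root mean square distance between mean-centred profiles over the 6 arrays, Slc6a12 and Nfat5 were 0.11 apart and Slc6a12 and Slc6a6 0.12, all 3 being nearly flat. Upk3a was between 1.13 (from Slc14a1) and 1.67 (from Cryab) away from every other gene. The named genes whose profiles were most like that of Slc14a2 were Tmem129, Cpm, Fgf1, Nudt6 and Mterf4, at distances from 0.0451 to 0.0554 among 11912 compared. For the tested probe of Upk1b they were Nme6, Gypc, Rpusd3, Srgap1 and Rnf144a, at 0.0359 to 0.0698. No other uroplakin was among these, and Upk3a lay 1.34 from the tested probe of Upk1b, which varied little. Within 0.1 lay 243 named genes for Slc14a2 and 34 for Upk1b, so the 5 named for each stand among many near-equal ones.

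**Figure D5:**
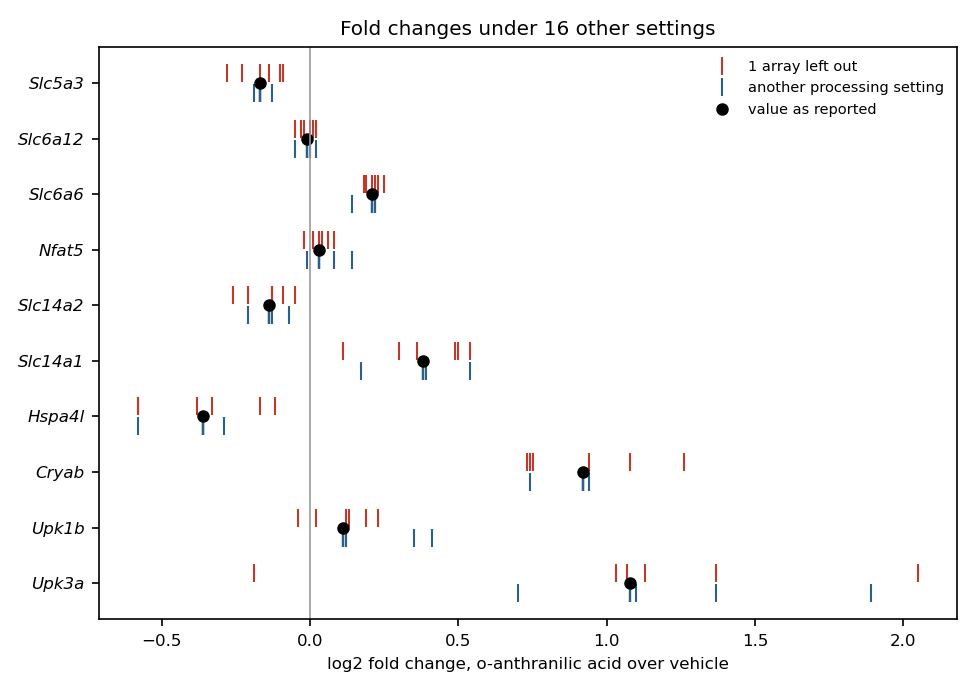
Log2 fold change of o-anthranilic acid over vehicle for each gene as reported (black), with 1 array left out (red, above) and under other processing settings (blue, below). Upk3a runs from -0.19 without treated replicate 3 to 2.05 without treated replicate 1, and Slc6a6 from 0.14 to 0.25.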

How the data were processed

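Per the submitters' processing notes the software was Agilent Feature Extraction 10.7, and the authors deposited each array's intensity per spot. The authors also deposited a table of linear ratios (column medians 0.103 to 0.106). Its columns match, within their group, scanner files of another replicate number (SD of log2 differences 0.0035 to 0.0056), so replicate numbers follow the scanner files; what the ratios were divided by is not stated, and the table served as an alternative only. From the deposited processed intensity, log2 was taken and the log2 of the array's 75th percentile over non-control spots subtracted. Spots of a probe were averaged, probes that failed the scanner's well-above-background call on more than 3 of 6 arrays left out, and each gene tested by its brightest kept probe. Accessions were named through RefSeq (GRCr8): 27435 of 61526 probes used were named. limma 3.58.1 in R 4.3.3 (lmFit, eBayes) compared treated with vehicle animals over 30709 features, with Benjamini-Hochberg adjustment and a threshold of 0.05, and was tested on simulated data. Named are the 10 genes with their probes, defining genes of each marker list and list genes at an unadjusted p under 0.05, and the 5 genes most like Slc14a2 and Upk1b. Akr1b1, Sord, Sgk1, Krt19, Slc7a13, Slc22a7, Cidec and Cfd come from the lists and were named after their values were seen. Alternatives were other background corrections, normalisations, dim-probe filters, probe summaries, variance models, blocks and leaving out each array. The 10 genes and marker lists were chosen with earlier results of these data known. How tissue was cut is not given in the sources used here.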

Additional observations from a re-analysis of the deposited data

How the results depend on the processing

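Features past the adjusted threshold numbered 0 as reported, 5 with normexp background correction, 1 with the filter on all 6 arrays, 2 with probes averaged per gene, 5 with trend and robust estimation, 3 with the slide as a block and 0 to 3 with 1 array left out. None of these was among the 10 genes. With normexp, Slc6a12 (-0.01 as reported) was 0.00 and Nfat5 (0.03 as reported) was -0.01; Upk1b was 0.41 (0.11 as reported), its brightest probe then being A_43_P11086, Slc14a1 was 0.17 (0.38 as reported) and Upk3a 0.70 (1.08 as reported). With probes averaged Slc6a12 was 0.02, Nfat5 0.14, Upk1b 0.35 and Upk3a 1.89. With 1 array left out, Slc6a12 ran from -0.05 to 0.02, Nfat5 from -0.02 to 0.08, Upk1b from -0.04 to 0.23 and Upk3a from -0.19 to 2.05; Upk1b was below 0 without vehicle replicate 2 and Upk3a without treated replicate 3. With 1 array left out the median of the 10 genes ran from -0.01 (without treated replicate 3) to 0.11, and that of the tonicity list from -0.18 to -0.07; with probes averaged the median of the 10 genes was 0.14. With no filter on dim probes the median of the urothelium list was 0.30, of the mesothelium list 0.07 and of the adipocyte list 0.10; with the mean of probes that of the cortex list was -0.04. Of 159 values of the 10 genes under 16 alternatives, 150 kept their direction and their side of the threshold, 9 changed sign and 0 passed the threshold; the causes were not tested. Upk3a could not be tested with the filter on all 6 arrays. Of features at an unadjusted p under 0.05, 41.7% were higher in treated animals as reported and 51.6% with no filter. Same-numbered animals of the groups had correlations of deviations of 0.02, -0.04 and -0.02, so the numbers gave no pairing; with the replicate block 0 features passed. Dim probes limit what can be said of Slc14a2, Slc14a1 and Upk3a.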

Other observations

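Treated replicate 3 stood apart for a few other genes as well. Hmox1, which encodes the heme-degrading enzyme heme oxygenase 1, read -1.42, -1.48 and 5.11 in treated animals, against -1.42, -1.55 and -1.47 in vehicle animals. Its step of 6.53 above the next array ranked 1 among all features. Rnf126 read 2.03, 1.91 and 3.67 in treated animals, against 1.89, 1.66 and 1.54 in vehicle animals. Prss2, a trypsinogen, read -4.78, -4.65 and -2.39 in treated animals, against -4.17, -4.19 and -4.20 in vehicle animals. The olfactory receptor Or5b123b read -2.64, -2.99 and 1.41 in treated animals, against -2.89, -3.32 and -3.99 in vehicle animals. These genes were picked after their values were seen, and no cause was tested.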
